A study of Homo sapiens with 9 samples.

Results

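The kinetochore is the protein assembly that forms on the centromere of each chromosome and ties it to spindle microtubules, and the spindle checkpoint holds back anaphase until every kinetochore is attached. The genes described here are 40 listed genes of the centromere, the kinetochore, the checkpoint and the chromosomal passenger complex. They were chosen by name, as the probe sets annotated with a single listed symbol, and where a gene had several probe sets, the brightest on average over the 9 arrays was used. The choice was made with earlier results of these data known. All 40 were found among the 19775 genes with a probe set, and all 40 were among the 12402 genes whose mean log2 value reached 5, the limit set for a gene to be tested. Each of the 40 was above 5 in every array, so that no gene was kept through its level in the control alone.

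Expression was measured with 9 Affymetrix arrays in the cell line MiaPaCa2, which was established from a human pancreatic carcinoma. Cells that had received the culture supernatant of naive pancreatic stellate cells (PSC), the fibroblast-like cells of the pancreatic stroma, were profiled after 1, 2, 3, 4, 5, 6, 7 and 24 h, with 1 array for each time. The remaining array is a control at 24 h, which the labels call a control although its title repeats the stellate cell treatment, and for which they do not say what the cells received. Values are log2 expression from the authors' normalization, and every difference is given as exposed minus control on that scale. No group had replicates: the standard errors (SE) and p-values come from limma, a linear model fitted to all 12402 genes, whose error term is the scatter of the 7 hourly arrays around a straight line in time. The 24 h and control arrays, 1 each, were taken to vary by as much. The p-values therefore measure only the spread of these arrays, which may be technical, and a gene passed where its Benjamini-Hochberg adjusted p over all genes was under 0.05. Every difference from the control rests on the same single control array, and a peculiarity of that array cannot be told apart from an effect of the supernatant. As it is labelled 24 h, the 1 to 7 h arrays were not compared with a control of their own hour. The labels differ on whether all cultures were harvested together or hour by hour, so that hours of exposure cannot be told apart from time in culture.

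Kinetochores are built in layers. The histone variant CENP-A marks the centromere, a constitutive network of CENP proteins sits on it through the cell cycle, and in mitosis the KNL1, MIS12 and NDC80 complexes join it to bind microtubules and to recruit the checkpoint kinases. Most of the genes for the mitotic layers are known to be transcribed mainly in G2 and mitosis in dividing cells, tumour lines included, so that their RNA level in a culture depends on how many cells are in those phases as well as on the RNA in each cell.

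The kinetochore genes were lower in the exposed cells than in the control. In the mean of the 1 to 7 h arrays 24 of the 40 passed as lower and 0 as higher, where 8.02% of all genes tested passed as lower and 5.85% as higher (limma, adjusted p). For the counts by role and by list below, the shares of all genes are the same unless another setting is named. The median difference of the 40 genes was -0.50, against -0.006 over all genes. The sign was negative for 38 of 40 genes, against 51.8% of all genes, and positive for 2, against 48.2%. Those 2 were CENPC and DSN1, at 0.06 ± 0.11 and 0.06 ± 0.11 (SE). In 31 of the 40 genes all 8 exposed arrays lay below the control array, as they did in 24.1% of all genes. Without the 5 h array, which scattered more than the other hourly arrays, 27 of the 40 passed as lower, and the share of all genes that did was 12.3%. Fewer cells in G2 and mitosis and less of these RNAs in each cell cannot be told apart in bulk RNA.

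**Figure D1:**
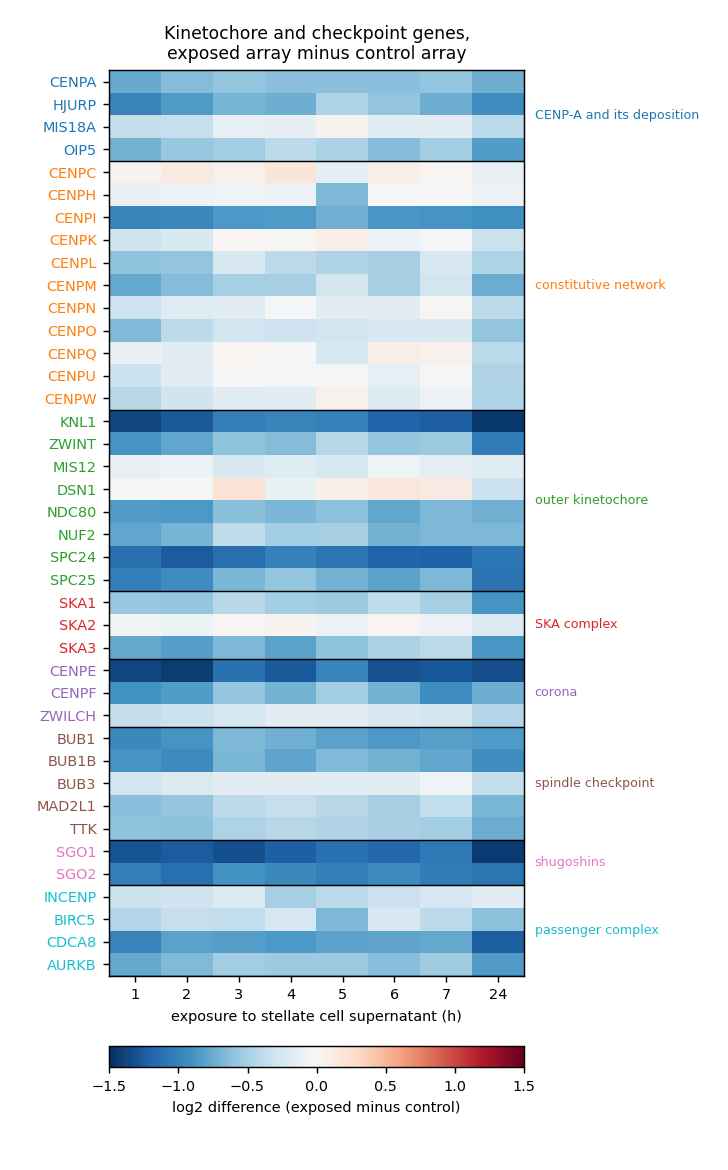
Log2 expression of the 40 genes in each exposed array minus the control array; rows are genes grouped by role, columns are hours of exposure (spacing not to scale), and blue is lower than the control. The rows of KNL1, SPC24, CENPE and the shugoshins are dark blue in every column, whereas most rows of the constitutive network are pale.

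The promoters of these genes were read from the RefSeq promoter table (GRCh38.p14, from 250 bases before to 50 bases after each gene's start), which held 32 of the 40. The letters TTTGAA, or TTCAAA on the other strand, are the core of the cell cycle genes homology region (CHR), an element of mitotic promoters bound by MuvB complexes, which repress in resting cells and activate in G2 with the partners B-MYB and FOXM1. They occurred in 16 of the 32 promoters (50%), against 18.2% of the 27305 genes with a promoter in the table and 13.6% of the 10050 of them that were tested here. The CCAAT box, the site of NF-Y (CCAAT, or ATTGG on the other strand), occurred in 23 of the 32 (71.9%), against 39.7% and 42.7%. Both motifs occurred in 10 of the 32 (31.2%), against 7.26% and 5.57%. The letters TTTGAA were found in 13 of the 21 members that passed as lower and in 3 of the 11 that did not, whereas CCAAT was found in 13 of the 21 and in 10 of the 11. No test was made of this split between members that passed and those that did not. The part of either motif in the differences was not tested. A match is a run of letters and not a measured site, and only these exact letters were searched. Among the genes with a promoter in the table, the 5 with the largest differences, CENPE, SGO1, SPC24, SGO2 and CENPI, held no TTTGAA in the windows read. The annotated starts were not checked and starts outside the table were not searched, so that this absence covers only those windows. The promoters below are those of the 4 genes with TTTGAA whose difference from the control was largest and of the 2 genes with the smallest differences, which hold CCAAT but no TTTGAA. Each is written 5′ to 3′ on the gene's strand with both motifs in capitals.
CDCA8, chr1:37692266-37692565, + strand: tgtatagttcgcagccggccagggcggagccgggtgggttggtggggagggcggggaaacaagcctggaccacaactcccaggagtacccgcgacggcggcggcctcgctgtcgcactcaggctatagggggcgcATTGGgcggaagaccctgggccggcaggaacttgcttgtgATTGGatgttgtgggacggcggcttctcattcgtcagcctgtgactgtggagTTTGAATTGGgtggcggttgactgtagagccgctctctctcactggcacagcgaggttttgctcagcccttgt
BUB1B, chr15:40160819-40161118, + strand: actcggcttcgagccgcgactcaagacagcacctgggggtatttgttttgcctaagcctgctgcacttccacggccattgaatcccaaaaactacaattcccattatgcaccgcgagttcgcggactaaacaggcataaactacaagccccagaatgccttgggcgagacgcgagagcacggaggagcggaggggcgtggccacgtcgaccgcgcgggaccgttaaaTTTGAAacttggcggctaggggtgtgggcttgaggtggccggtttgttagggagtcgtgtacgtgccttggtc
SPC25, chr2:168890381-168890680, - strand: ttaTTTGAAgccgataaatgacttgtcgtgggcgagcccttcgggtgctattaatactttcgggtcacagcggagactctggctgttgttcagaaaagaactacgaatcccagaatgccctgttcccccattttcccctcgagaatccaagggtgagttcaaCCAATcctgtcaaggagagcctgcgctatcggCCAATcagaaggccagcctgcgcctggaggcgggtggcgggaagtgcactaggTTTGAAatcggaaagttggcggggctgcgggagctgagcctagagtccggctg
CENPF, chr1:214602945-214603244, + strand: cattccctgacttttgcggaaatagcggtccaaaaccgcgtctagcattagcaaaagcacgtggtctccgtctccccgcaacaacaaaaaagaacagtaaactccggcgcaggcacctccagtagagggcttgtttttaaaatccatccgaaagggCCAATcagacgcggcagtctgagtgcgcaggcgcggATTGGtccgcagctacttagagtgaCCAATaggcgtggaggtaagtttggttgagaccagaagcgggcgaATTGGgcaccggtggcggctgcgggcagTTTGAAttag
CENPQ, chr6:49463120-49463419, + strand: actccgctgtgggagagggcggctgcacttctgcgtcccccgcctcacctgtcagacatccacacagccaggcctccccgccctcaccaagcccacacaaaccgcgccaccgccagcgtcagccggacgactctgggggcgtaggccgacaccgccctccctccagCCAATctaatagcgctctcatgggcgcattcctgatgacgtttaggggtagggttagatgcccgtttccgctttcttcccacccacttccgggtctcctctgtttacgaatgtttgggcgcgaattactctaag
SKA2, chr17:59155137-59155436, - strand: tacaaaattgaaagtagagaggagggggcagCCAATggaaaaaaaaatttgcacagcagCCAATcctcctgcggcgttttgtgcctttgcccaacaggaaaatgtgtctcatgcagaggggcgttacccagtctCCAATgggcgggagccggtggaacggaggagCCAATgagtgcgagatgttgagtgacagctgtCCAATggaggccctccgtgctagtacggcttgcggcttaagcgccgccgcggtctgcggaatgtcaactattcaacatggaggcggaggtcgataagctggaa
Counted from the gene's start as base 1, the first TTTGAA letter stood at -23 in CDCA8 and in BUB1B, at -3 and -247 in SPC25 and at 41 in CENPF. CCAAT boxes began at -115, -75 and -18 in CDCA8, where the last shares 1 base with TTTGAA, at -88 and -56 in SPC25, and at -94, -58, -33 and 13 in CENPF. CENPQ held a single CCAAT at -84, and SKA2 held 5, at -219, -191, -116, -85 and -53.

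At the centromere itself, CENPA and 2 of the 3 genes that place its protein passed as lower. CENPA, the histone H3 variant that defines the centromere, ran at 7.76, 7.87, 7.93, 7.89, 7.89, 7.89, 7.93 and 7.78 from 1 to 7 h and at 24 h, against 8.52 in the control. The exposed arrays lay close together and all below the control, and the mean of 1 to 7 h differed by -0.64 ± 0.07 (1.56-fold lower, limma adjusted p = 0.00153). HJURP, the chaperone that deposits CENP-A, read 9.35, 9.51, 9.66, 9.62, 9.89, 9.76, 9.62 and 9.42, against 10.35 in the control. Its difference was -0.73 ± 0.13 over 1 to 7 h (adjusted p = 0.00912) and -0.94 at 24 h. Of the 2 listed subunits of the Mis18 complex, which licenses that deposition, OIP5 passed at -0.55 ± 0.11 (adjusted p = 0.0144). MIS18A differed by -0.18 ± 0.12 and did not pass (adjusted p = 0.346), with its 5 h array above the control.

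Of the 11 listed genes of the constitutive centromere network 3 passed as lower, with a median difference of -0.15. The exception in size was CENPI, a subunit of the CENP-H/I/K/M complex, which read 7.55, 7.57, 7.68, 7.68, 7.82, 7.67, 7.65 and 7.62 from 1 to 24 h, against 8.54 in the control. All 8 exposed arrays lay well below the control, at -0.88 ± 0.09 over 1 to 7 h (1.84-fold lower, limma adjusted p = 0.00117). The other subunits of that complex gave smaller differences. CENPM passed at -0.50 ± 0.10 (adjusted p = 0.0178), and CENPK and CENPH did not, at -0.07 ± 0.12 (adjusted p = 0.765) and -0.15 ± 0.22 (adjusted p = 0.713). CENPH read 7.49 at 5 h, where its other hourly arrays lay between 8.03 and 8.15 and the control at 8.16.

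CENPO, of the complex that also holds CENP-Q and CENP-U, was the weakest call, at -0.34 ± 0.10 with an adjusted p of 0.0496. It passed under 4 of the 15 settings tried and was lost without the 2, 3, 4, 6 or 7 h array. CENPL, which pairs with CENP-N on the CENP-A nucleosome, missed the threshold at -0.43 ± 0.13 (adjusted p = 0.0567) and passed without the 3 h or the 5 h array (adjusted p = 0.0305 and 0.0466). The remaining 5 genes, CENPC, CENPN, CENPQ, CENPU and CENPW, lay between -0.18 and 0.06, with adjusted p from 0.32 to 0.857. CENPC codes for the protein that links CENP-A nucleosomes to the outer kinetochore, and its hourly arrays spanned 6.28 to 6.61 around a control of 6.43.

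Of the outer kinetochore genes 6 of 8 passed as lower, with a median difference of -0.68. KNL1, the scaffold that carries the binding sites of the BUB proteins, read 8.48, 8.58, 8.81, 8.84, 8.83, 8.64, 8.60 and 8.39 from 1 to 24 h, against 9.84 in the control. Every exposed array was at least 2-fold below the control, with the hourly mean at -1.16 ± 0.14 (2.24-fold lower, limma adjusted p = 0.00168) and the 24 h array at -1.45. Its partner ZWINT, which helps to bring the RZZ complex to kinetochores, read 10.36, 10.47, 10.64, 10.60, 10.81, 10.67, 10.69 and 10.20, against 11.25. The mean of the 1 to 7 h arrays of ZWINT differed from the control by -0.64 ± 0.10 (adjusted p = 0.00575). Its 24 h array was lower still, at -1.04.

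All 4 genes of the NDC80 complex, the main microtubule binder of the kinetochore, passed as lower. SPC24 read 8.06, 7.93, 8.05, 8.17, 8.10, 7.98, 7.97 and 8.10, against 9.18 in the control, a difference of -1.15 ± 0.10 (2.21-fold lower, limma adjusted p = 6.43e-04). SPC25, with which it forms the inner end of the complex, read 8.98, 9.09, 9.32, 9.42, 9.31, 9.21, 9.34 and 8.91, against 10.01. The arrays of SPC24 were nearly level over time, whereas SPC25 was lowest at 1 h and at 24 h. SPC25 differed by -0.77 ± 0.12 (1.71-fold lower, adjusted p = 0.00605).

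NDC80 and NUF2, which code for the microtubule-binding end of the complex, were both lower. NDC80 lay between 10.19 and 10.44 in the exposed arrays, against 11.06 in the control, at -0.73 ± 0.10 (adjusted p = 0.00316). NUF2 read 10.28, 10.36, 10.68, 10.55, 10.56, 10.35, 10.39 and 10.39 from 1 to 24 h, against 11.06, and was at -0.61 ± 0.14 (adjusted p = 0.0257), a call that was lost without the 2 h array (adjusted p = 0.05). The listed genes of the MIS12 complex, which joins the outer layer to the centromere, did not pass. MIS12 was at -0.15 ± 0.09 (adjusted p = 0.279) and DSN1 at 0.06 ± 0.11 (adjusted p = 0.772). DSN1 read 7.19, 7.21, 7.42, 7.11, 7.29, 7.38 and 7.34 from 1 to 7 h, on both sides of the control at 7.21, and 6.90 at 24 h.

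Of the SKA complex, which stabilises kinetochore attachments to microtubules, SKA1 and SKA3 passed as lower and SKA2 did not. SKA1 read 7.37, 7.37, 7.52, 7.43, 7.40, 7.57 and 7.45 from 1 to 7 h and 7.06 at 24 h, against 7.95 in the control, and the hourly mean differed by -0.50 ± 0.08 (adjusted p = 0.00786). SKA3 read 7.51, 7.44, 7.60, 7.48, 7.67, 7.80 and 7.87 from 1 to 7 h and 7.40 at 24 h, against 8.27, with a difference of -0.65 ± 0.09 (adjusted p = 0.00413). Both were below the control in all 8 exposed arrays. SKA2 stayed between 10.43 and 10.56 over 1 to 7 h, around a control of 10.52, a difference of -0.03 ± 0.08 (adjusted p = 0.887).

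The corona is the outermost layer of an unattached kinetochore. CENPE, its kinesin motor, showed the largest 1 to 7 h difference of the 40 genes. It read 8.52, 8.45, 8.77, 8.62, 8.88, 8.57, 8.61 and 8.55 from 1 to 24 h, against 9.88 in the control. All 8 exposed arrays were at least 2-fold below the control, and the hourly mean differed by -1.25 ± 0.14 (2.38-fold lower, limma adjusted p = 0.00135). CENPF, a large coiled-coil protein of the corona, read 10.26, 10.33, 10.59, 10.47, 10.65, 10.46, 10.24 and 10.43, against 11.17, and passed at -0.74 ± 0.15 (adjusted p = 0.0161). ZWILCH, of the RZZ complex that recruits dynein and checkpoint proteins, was at -0.25 ± 0.08 and did not pass (adjusted p = 0.0776), although it did without the 5 h array (adjusted p = 0.0388).

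Of the spindle checkpoint genes 4 of 5 passed as lower. BUB1, the kinase that marks centromeric histone H2A, read 9.58, 9.66, 9.87, 9.82, 9.75, 9.68, 9.73 and 9.70, against 10.55 in the control, at -0.82 ± 0.10 (1.76-fold lower, limma adjusted p = 0.00237). BUB1B, whose protein BubR1 is part of the inhibitor of the anaphase promoting complex, read 10.02, 9.94, 10.21, 10.11, 10.24, 10.19, 10.12 and 9.97, against 10.90. It differed by -0.78 ± 0.10 (1.72-fold lower, adjusted p = 0.00232). In both genes the 8 exposed arrays lay below the control.

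TTK, the kinase that starts checkpoint signalling, and MAD2L1, whose protein MAD2 binds CDC20, passed with smaller differences of -0.51 ± 0.08 (adjusted p = 0.00734) and -0.46 ± 0.10 (adjusted p = 0.0177). BUB3, the partner that docks BUB1 and BubR1 on KNL1, did not pass, at -0.17 ± 0.07 (adjusted p = 0.131), although all 8 of its exposed arrays lay below the control.

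Both shugoshins, which protect cohesin at the centromere until anaphase, passed as lower, with a median of -1.11. SGO1 read 5.27, 5.33, 5.25, 5.35, 5.45, 5.39, 5.50 and 5.14 from 1 to 24 h, against 6.57 in the control. Its exposed arrays were just above the filter of 5 and all at least 2-fold below the control, with the mean of 1 to 7 h at -1.21 ± 0.08 (2.31-fold lower, limma adjusted p = 2.23e-04). SGO2 read 9.05, 8.94, 9.16, 9.11, 9.04, 9.12, 9.03 and 8.98, against 10.08, and differed by -1.01 ± 0.09 (2.02-fold lower, adjusted p = 8.02e-04). The 8 exposed arrays of SGO2 lay close together and below the control.

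Of the chromosomal passenger complex, which corrects faulty attachments, CDCA8 and AURKB passed as lower. CDCA8 codes for borealin, which helps to place the complex on the centromere, and read 9.60, 9.79, 9.77, 9.74, 9.80, 9.81, 9.83 and 9.36, against 10.60 in the control. It differed by -0.84 ± 0.08 over 1 to 7 h (1.79-fold lower, limma adjusted p = 9.34e-04). AURKB, the kinase of the complex, differed by -0.60 ± 0.09 (1.52-fold lower, adjusted p = 0.00468). INCENP, the scaffold, was at -0.33 ± 0.11 (adjusted p = 0.0728). BIRC5, which codes for survivin, was at -0.39 ± 0.14 (adjusted p = 0.109), with its lowest hourly array at 5 h (10.29), and passed without that array (adjusted p = 0.0247).

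**Figure D2:**
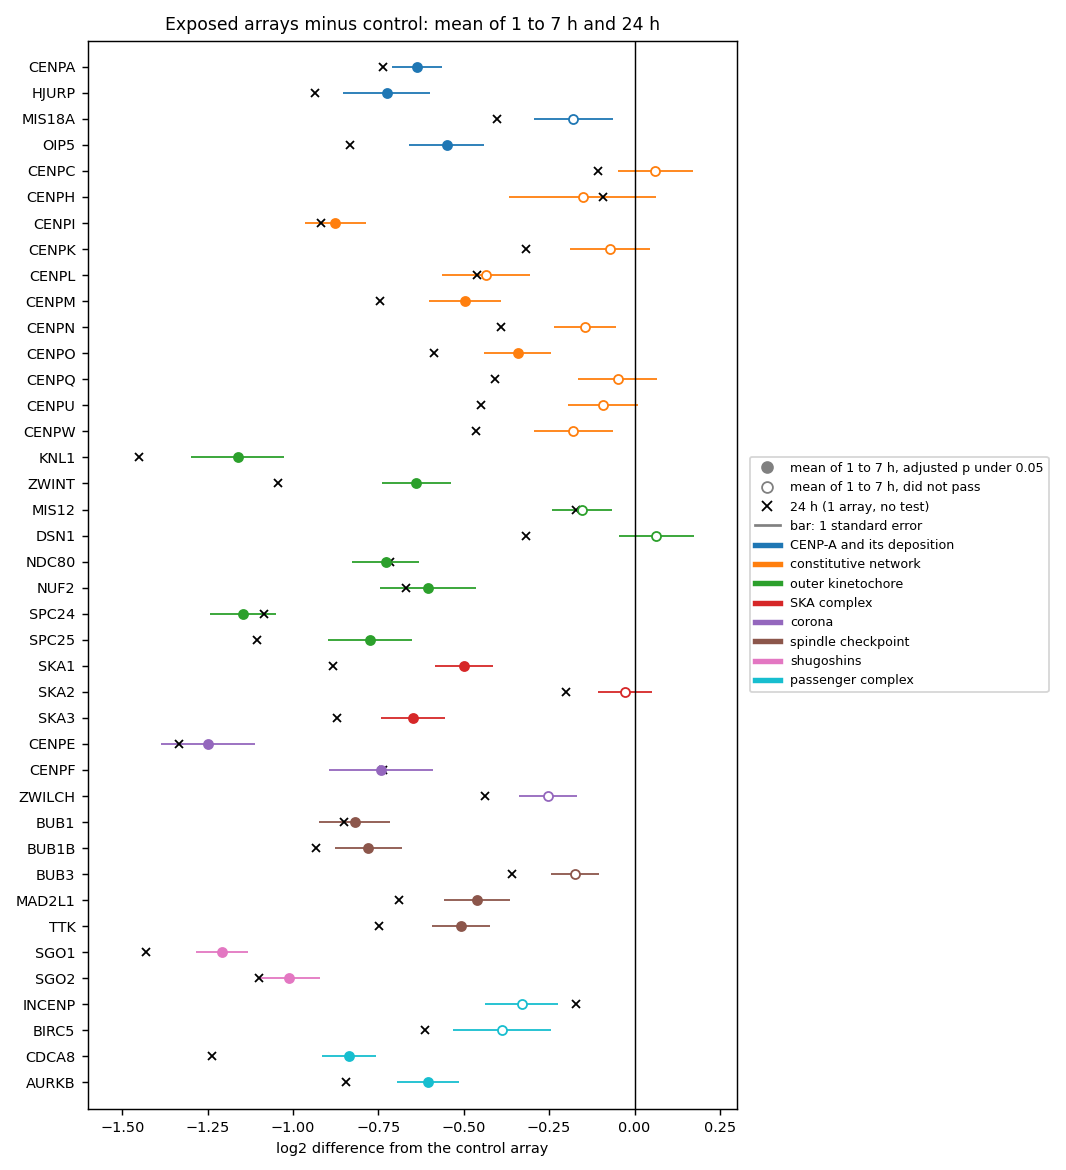
Log2 difference of each gene from the control array (horizontal axis), with circles for the mean of the 1 to 7 h arrays, bars for 1 SE and crosses for the single 24 h array; filled circles passed at an adjusted p under 0.05. The 24 filled circles run from -1.25 (CENPE) to -0.34 (CENPO), and the open circles from -0.43 to 0.06 include 8 of the 11 listed genes of the constitutive network.

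At 24 h, when the control was also taken, all 40 genes lay below the control, with a median of -0.73 against 0.02 over all genes. This sets 1 array against 1 array and has no test. At least 2-fold lower were 8 of the 40 and at least 2-fold higher 0, where 0.693% and 0.468% of all genes were. The 8 were KNL1 at -1.45 (2.73-fold lower), SGO1 at -1.43 (2.69-fold), CENPE at -1.33 (2.52-fold), CDCA8 at -1.24 (2.36-fold), SPC25 at -1.10 (2.15-fold), SGO2 at -1.10 (2.14-fold), SPC24 at -1.09 (2.12-fold) and ZWINT at -1.04 (2.06-fold). With the mean over a gene's probe sets the count was 4 lower and 0 higher, where 0.513% and 0.321% of all genes were. At a threshold of 1.5-fold it was 25 lower and 0 higher, where 3.43% and 3.15% of all genes were. KNL1, SPC24, CENPE and SGO1 were at least 2-fold below the control in all 8 exposed arrays, as were 0.137% of all genes (17 of 12402). The smallest differences at 24 h were those of CENPH (-0.09) and CENPC (-0.11).

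Among the hourly arrays the 40 genes moved little. Their median difference from the control was -0.69, -0.61, -0.44, -0.50, -0.47, -0.50 and -0.45 from 1 to 7 h, so that the 1 h array already lay below the control. That control is labelled 24 h, and the hourly arrays have no control of their own hour. A change within 1 h of exposure therefore cannot be told apart from a difference in time or a peculiarity of the control array. The 1 h array was the lowest of the 7 hourly arrays for 22 of the 40 genes, against 15.1% of all genes, and the 2 h array for another 8, against 10.6%. The 5 h array, which was the lowest for 38.7% of all genes, was the lowest for 6 of the 40. It was the highest for 12 of the 40, against 12.2% of all genes.

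No gene of the whole table passed for the slope over 1 to 7 h by limma's adjusted p. At an unadjusted p under 0.05 the slope was positive in 8 of the 40, against 4.89% of all genes, and negative in 0, against 10.8%. Its sign was positive in 34 of the 40, against 41.9% of all genes, and negative in 6, against 58.1%. The smallest p-values were those of SKA3 at 0.066 ± 0.017 per h (limma adjusted p = 0.142) and CENPM at 0.072 ± 0.018 per h (adjusted p = 0.144). CENPM read 7.92, 8.03, 8.19, 8.19, 8.42, 8.19 and 8.41 from 1 to 7 h and 7.94 at 24 h, against 8.69 in the control. CENPO followed at 0.058 ± 0.017 per h, with 6.88, 7.16, 7.25, 7.23, 7.26, 7.32 and 7.31 from 1 to 7 h and 6.96 at 24 h, against 7.54 in the control, then ZWINT at 0.055 ± 0.018 and SGO1 at 0.037 ± 0.013 per h. The adjusted p was 0.142 or more for each. Of the other settings, robust estimation with an intensity trend called 4 genes of the table as rising and 21 as falling over the hours, the filter of 6 called 2 and 13, log2 of the hour 16 and 58, and the fit that left out the 5 h array 9 and 64. None of these calls was one of the 40 genes.

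A curve over the same hours, fitted as the ends of the window minus its middle, gave no gene with an adjusted p under 0.05 either. At an unadjusted p under 0.05 it was negative, with the middle hours higher, in 5 of the 40, against 2.32% of all genes, and positive in 0, against 4.65%. Its sign was negative in 33 of the 40, against 41.5% of all genes, and positive in 7, against 58.5%. The 5 were KNL1 (-0.31 ± 0.07), CENPF (-0.33 ± 0.09), NUF2 (-0.27 ± 0.10), HJURP (-0.24 ± 0.09) and CENPK (-0.22 ± 0.08), each with a limma adjusted p of 0.696. KNL1 was at 8.48 and 8.60 in the 1 and 7 h arrays and at 8.84 at 4 h. CENPK read 9.38, 9.44, 9.70, 9.69, 9.78, 9.59, 9.65 and 9.36 from 1 to 24 h, and its 3, 4 and 5 h arrays lay above the control at 9.68.

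The 24 h array lay below the mean of the hourly arrays in 35 of the 40 genes, against 43.3% of all genes, and above it in 5, against 56.7%, with a median of -0.22. None of the 40 passed (limma, adjusted p), where 0.00806% of all genes passed as higher, which is 1 gene, and 0% as lower. Robust estimation called 3 genes of the table higher and 8 lower, again with 0 of the 40. At an unadjusted p under 0.05 the 24 h array was lower in 18 of the 40, against 5.9% of all genes, and higher in 0, against 9.79%. In 21 of the 40 it lay below all 7 hourly arrays, as it did in 14.4% of all genes. It lay above all 7 in 1, INCENP, against 21.9% of all genes. CDCA8 gave the smallest p, at -0.40 ± 0.08 (limma adjusted p = 0.122), with 9.36 at 24 h below an hourly range of 9.60 to 9.83. SKA1 followed at -0.38 ± 0.08 (adjusted p = 0.129) and ZWINT at -0.40 ± 0.10 (adjusted p = 0.142). CENPU and DSN1, which had not passed against the control over 1 to 7 h, were at -0.36 ± 0.10 and -0.38 ± 0.11 (adjusted p = 0.176 for each). CENPU, of the network beside CENP-O, read 10.47, 10.63, 10.80, 10.76, 10.76, 10.67 and 10.80 from 1 to 7 h, against 10.79 in the control, and 10.34 at 24 h.

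**Figure D3:**
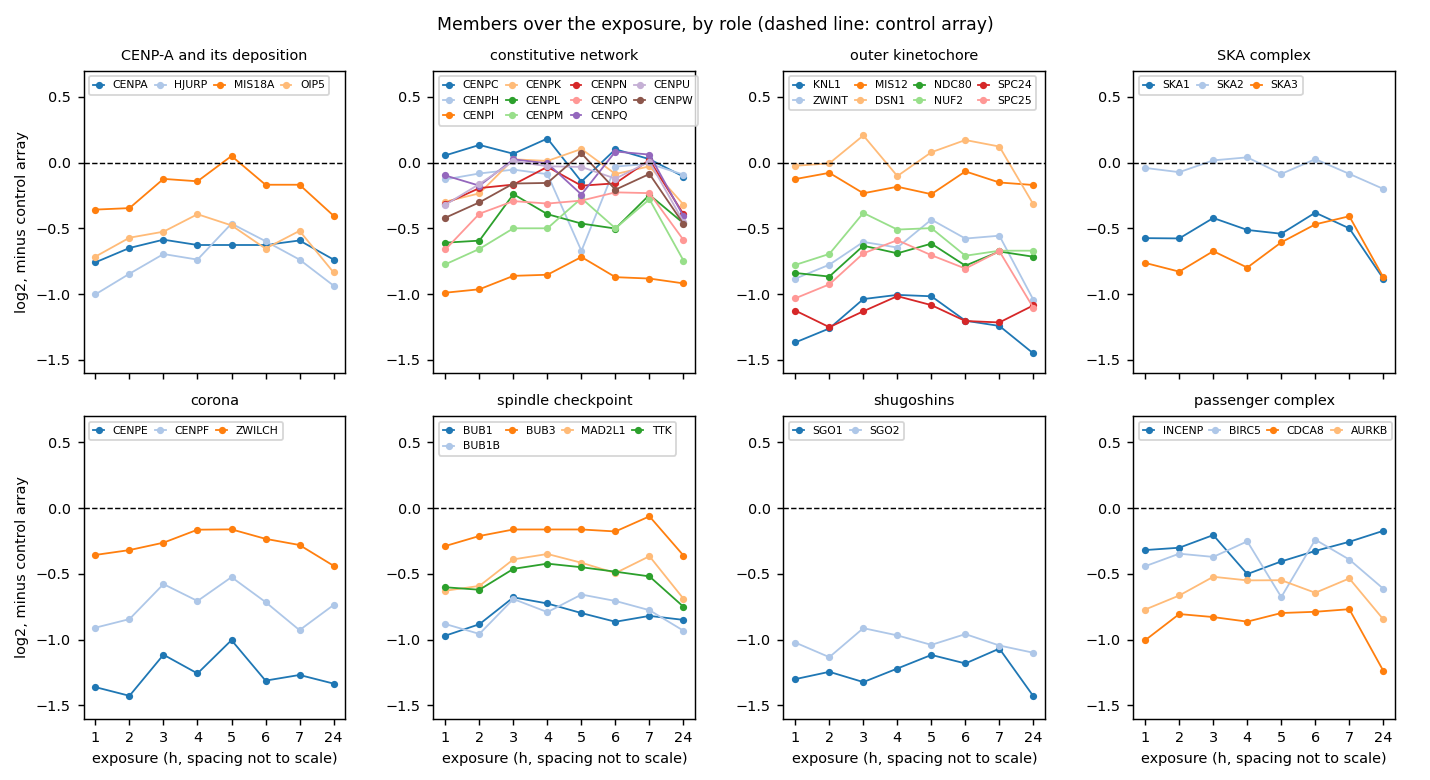
Log2 expression minus the control array (vertical axis) over the exposure (horizontal axis, spacing not to scale), 1 line per gene and 1 panel per role; the dashed line is the control array. In most panels the hourly points form a plateau below the dashed line that is lowest at 1 or 2 h, and 35 of the 40 genes end at 24 h below the mean of their hourly points.

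The genes were also followed as medians of groups. The 29 genes outside the network had medians of -0.77, -0.69, -0.58, -0.59, -0.54, -0.63 and -0.56 from 1 to 7 h and -0.83 at 24 h, and 21 of them passed as lower over 1 to 7 h. The 11 listed genes of the network had medians of -0.32, -0.23, -0.16, -0.09, -0.24, -0.16 and -0.03 and then -0.45 at 24 h. No test of this difference between the roles was made.

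Genes that act beside the kinetochore were followed in lists, beside shares over 1 to 7 h of 8.02% of all genes as lower and 5.85% as higher. Of 12 mitotic entry kinases and cyclins 9 passed as lower, with a median of -0.73: BORA, the activator of Aurora A that promotes PLK1 activation, was at -1.02 ± 0.09, AURKA at -0.998 ± 0.095, the cyclin gene CCNA2 at -0.83 ± 0.11 and the spindle factor TPX2 at -0.80 ± 0.08 (limma adjusted p from 9.34e-04 to 0.00251). Of 24 further kinetochore and checkpoint genes 21 were tested, and 6 passed as lower over 1 to 7 h with a median of -0.16. The largest were the mitotic kinases PLK1 at -0.95 ± 0.09 and NEK2 at -0.88 ± 0.09, the dynein regulator NDE1 at -0.64 ± 0.07 and CENPT of the constitutive network at -0.56 ± 0.08. Without the 5 h array 9 of them passed as lower and 1 as higher, where 12.3% and 11% of all genes did.

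Of 20 genes of the anaphase promoting complex, its partners and separase, 8 passed as lower, where 8.02% of all genes did, and the median was -0.12. The ubiquitin-conjugating enzymes that work with the complex, UBE2C (-0.74 ± 0.09) and UBE2S (-0.63 ± 0.08), its activator and checkpoint target CDC20 (-0.71 ± 0.09) and the separase gene ESPL1 (-0.51 ± 0.10) led them. Of the 8 condensin genes, which compact mitotic chromosomes, 5 passed as lower and the median was -0.39, led by NCAPG at -0.78 ± 0.13, SMC4 at -0.49 ± 0.09, NCAPD2 at -0.47 ± 0.08 and NCAPG2 at -0.40 ± 0.10. The fifth, named after its value had been seen, was NCAPH2 at -0.34 ± 0.09. Of 13 cohesin genes 2 passed as lower, SMC1A at -0.59 ± 0.11 and STAG1 at -0.32 ± 0.09, a count that was 1 without the 1, 2, 3, 4 or 7 h array. With 5 h left out 3 passed as lower and 1 as higher, where 12.3% and 11% of all genes did. The acetyltransferase genes ESCO1 (0.34 ± 0.11) and ESCO2 (-0.40 ± 0.16) did not pass.

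Of 18 tested regulators known to act at promoters of mitotic genes 2 passed as lower, with a median of -0.03. This count is near the share of all genes that passed as lower (8.02%). FOXM1, a transcription factor of G2 and mitotic genes, was at -0.54 ± 0.11 (limma adjusted p = 0.0173), with hourly arrays between 9.36 and 9.70 against 10.11 in the control. The other was the NF-Y subunit gene NFYB at -0.29 ± 0.08 (adjusted p = 0.0417), named after its value had been seen. E2F7 (0.35 ± 0.20), NFYA (-0.32 ± 0.12) and LIN37 (-0.31 ± 0.17) did not pass.

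Of 20 S phase genes 2 passed as lower, a count near the share of all genes that did (8.02%). The 2 were POLA1 at -0.46 ± 0.12 and TYMS at -0.33 ± 0.08, and ORC1 (0.46 ± 0.14, limma adjusted p = 0.0563) and CCNE2 (0.34 ± 0.14, adjusted p = 0.147) did not pass. The median of the list was -0.10. The count of 2 rested on single arrays: 0 passed when the 1 h or the 2 h array was left out, and 3 passed as lower and 1 as higher when the 5 h array was. Without the 5 h array 12.3% of all genes passed as lower and 11% as higher. By array the S phase medians were -0.32, -0.22, -0.06, -0.09, -0.10, 0.05 and 0.02 from 1 to 7 h and -0.42 at 24 h. The list's values at 24 h lay below the mean of the hourly arrays for 20 of 20 genes, with a median of -0.36, and none of them had an adjusted p under 0.05. The mitotic entry list had medians of -0.86, -0.76, -0.63, -0.69, -0.69, -0.77 and -0.69 and then -0.74 at 24 h.

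**Figure D4:**
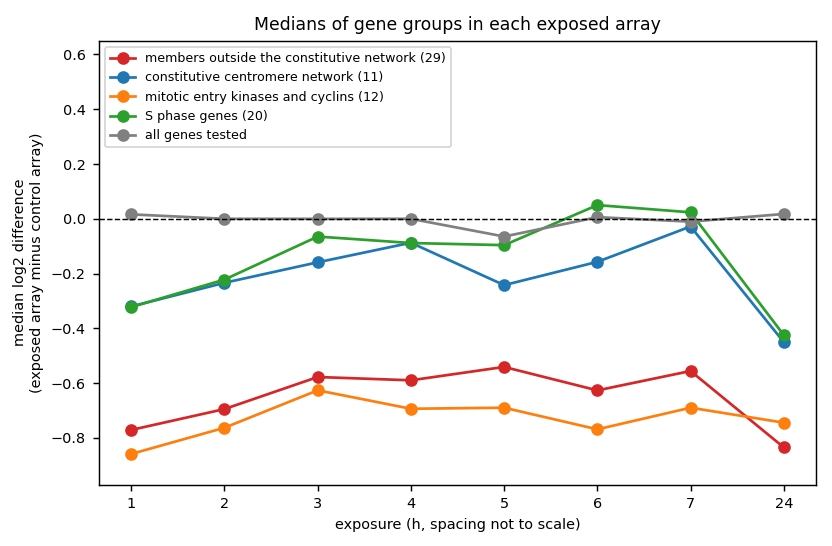
Median log2 difference from the control array (vertical axis) in each exposed array (horizontal axis in h, spacing not to scale) for the 29 genes outside the constitutive network, its 11 genes, the mitotic entry list, the S phase list and all genes tested. The 29 genes and the mitotic entry list stay between -0.54 and -0.86 throughout, the network and the S phase list come near 0 by 7 h and are at -0.45 and -0.42 at 24 h, and all genes stay near 0.

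Probe sets of the same gene differed for some members. The 40 genes had 77 probe sets, and 22 genes had a single one. SPC24 rested on 1 of its 2 probe sets: the brighter one differed by -1.15 over 1 to 7 h and the other, with a mean of 5.46, by 0.16. Another probe set of SGO1 had a mean of 4.76, below the filter, and differed by -0.20. KNL1 had a second bright probe set at -0.64, CENPI one at -0.50 and SGO2 one at -0.75. For BIRC5 the brightest probe set, at -0.39, had the smallest difference of 4, and another reached -1.20. The brightest was at its lowest hourly level at 5 h (10.29), as was the dimmest (7.12). The other BIRC5 probe sets were at their highest hourly level there (9.63 and 8.715), and the former lay above its control of 9.31. For BUB3 the 5 bright probe sets ran from -0.17, the one used, to -0.58, and for CENPN the 3 ran from -0.15, the one used, to -0.63. For CENPO and CENPU the other probe sets gave 0.01 and up to 0.16, against -0.34 and -0.09 in the ones used. With the mean over all probe sets of a gene, BIRC5, BUB3 and CENPL passed as lower (adjusted p = 0.00189, 0.0197 and 0.0139), and MAD2L1, AURKB and CENPO did not (adjusted p = 0.0558, 0.064 and 0.169).

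**Figure D5:**
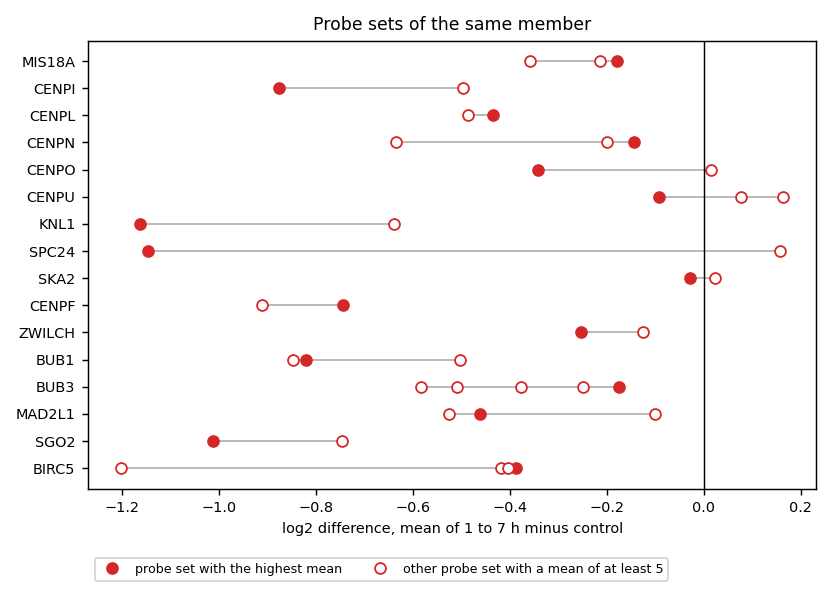
Log2 difference of the 1 to 7 h mean from the control array (horizontal axis) for every probe set with a mean of at least 5, in the 16 genes that had more than 1 such probe set; filled points are the probe sets used. SPC24 spans -1.15 to 0.16 and BIRC5 -1.20 to -0.39, while both probe sets of CENPL and of SKA2 lie within about 0.05 of each other.

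The arrays had like medians, from 4.92 to 4.97. The 5 h array and the control correlated least with the others (median correlation 0.9906 and 0.9905, against 0.9957 or more), and the 5 h array had the largest 3′ minus 5′ difference of the ACTB control probe sets (2.24, against 1.59 to 1.97). Of the markers that could show other cells, 8 of 14 stellate cell and fibroblast genes were tested. COL1A2, COL3A1, COL6A3 and RGS5, 4 of the 8, passed as higher over 1 to 7 h, where 5.85% of all genes did. DCN (0.41), COL1A1 (0.09), THY1 (0.05) and ACTA2 (-0.40) did not pass. The summed linear level of the 14 was 7486 to 8339 in the hourly arrays and 8809 at 24 h, against 5860 in the control, where RGS5 made up 63.0% of it and COL1A2 21.5%. PDGFRB, PDGFRA, DES, LUM, FAP and POSTN were below the filter. Of the leukocyte markers LYZ was at 7.90 to 8.21 in the hourly arrays and 8.14 at 24 h, against 5.70 in the control. CD14 (0.48) and CD74 (0.11) did not pass, and PTPRC and CD3E were below the filter. Of the endothelial markers TEK and EMCN passed as higher, PECAM1 (0.08) did not pass, and VWF and CDH5 were below the filter. Of the epithelial markers KRT8, KRT18 and KRT19 were well measured and EPCAM and CDH1 were below the filter in the cells labelled as carcinoma cells. The part of these markers in the lower kinetochore genes was not tested.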

How the data were processed

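Total RNA of 9 MiaPaCa2 cultures was hybridised to 1 Affymetrix array each. The log2 values were made by the authors with RMA, which corrects background, normalizes between arrays and summarises probe sets, per the submitters' processing notes; no version is given in the sources used here. The deposited table held 54675 probe sets, and a second deposited table held 6370 of them with the same log2 values to within 5.00e-09, by a rule that the sources used here do not give. It holds a probe set of 12 of the 40 genes.

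Groups came from the sample titles, and the control array was taken as a control from its label. The platform annotation gave 1 symbol for 41097 probe sets, several for 1801 and none for 11777, and 41043 were matched by Entrez ID to the GRCh38.p14 RefSeq gene table to update symbols. Each of 19775 genes kept its probe set with the highest mean, and the 12402 with a mean of at least 5 were tested. limma 3.58.1 in R 4.3.3 (lmFit, eBayes, two-sided, Benjamini-Hochberg over 12402 genes, threshold 0.05) fitted the centred hour, a 24 h indicator and a control indicator, with 5 residual and 3.72 prior degrees of freedom. The curve added a quadratic term, with 4 residual degrees of freedom. The single 24 h array and the control were compared without a test. The number of arrays limits the precision. The script was tested on simulated data. There the control and 24 h arrays were given the spread of the hourly arrays, so that this assumption itself was not tested.

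The genes, the lists and the tests were chosen with earlier results of these data known. Values in every array were given for the 10 genes with the largest difference from the control over 1 to 7 h and at 24 h and, for the slope, the curve and 24 h minus 1 to 7 h, for the 5 genes with the smallest p. Up to 4 genes of a list were named by size. A gene that differed from the rest of its complex was also described. Promoters come from RefSeq (GRCh38.p14). The RefSeq promoter table used here held no entry for CENPH, CENPL, CENPM, KNL1, BUB3, TTK, BIRC5 and MIS18A. Alternatives were no filter, another quantile normalization, the mean over all probe sets of a gene, arrays shifted to 1 median, a filter of 6, robust estimation with an intensity trend, no time term, log2 of the hour, a 1.5-fold threshold, and leaving out each hourly array. Python 3.11.15, pandas 2.3.3, numpy 2.4.6 and matplotlib 3.10.9 prepared tables and figures.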

Additional observations from a re-analysis of the deposited data

How the results depend on the processing

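Of the 24 genes that passed as lower over 1 to 7 h, 18 passed under all 15 settings, SGO1 passed under the 14 in which it was tested (its mean is below the filter of 6), and 28 of the 40 passed under at least 1. The count was 22 to 27 when 1 hourly array was left out. In those fits the share of all genes that passed as lower ran from 5.31% without the 3 h array to 12.3% without the 5 h array. None of the 40 passed for the slope, the curve or 24 h minus 1 to 7 h under any setting run. At 24 h the count of genes at least 2-fold below the control was 8, against 0.693% of all genes. It was 4 with the mean over probe sets, against 0.513%, and 25 at 1.5-fold, against 3.43%. The sign of the 1 to 7 h difference turned for CENPQ under another quantile normalization (0.0255) and for CENPU under the mean over probe sets (0.0495); neither had passed. CENPM was lost with no time term (adjusted p = 0.0893), and BUB3 passed under the robust setting (adjusted p = 0.0425).

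The shares of all genes that passed over 1 to 7 h also moved with the setting. With no filter they were 4.09% as lower and 2.99% as higher, and without the 5 h array 12.3% and 11%. The mean over probe sets gave 6.85% and 4.22%, another quantile normalization 7.29% and 9.51%, and the shift to 1 median 7.05% and 4.34%. The robust setting gave 9.06% and 6.76%, and no time term 6.36% and 4.39%. Leaving out 1 hourly array gave 5.31% to 12.3% as lower and 3.4% to 11% as higher. Among the lists, the counts that passed in 1 direction or the other moved as follows. Cohesin gave 1 under the shift to 1 median and with no filter. Condensin gave 3 with the mean over probe sets. The regulators gave 1 with the mean over probe sets (median 0.05), the shift to 1 median, no filter and no time term. S phase genes gave 4 under another quantile normalization, 0 with no filter, 5 under the robust setting and 1 with no time term. Leaving out 1 hourly array gave 6 to 10 for the further kinetochore genes, 7 to 9 for the anaphase promoting complex, 1 to 4 for cohesin, 3 to 6 for condensin, 1 to 3 for the regulators, 8 to 11 for mitotic entry and 0 to 4 for S phase genes. The cause was not tested. No paired analysis was possible because each group has 1 array and the labels carry no replicate numbers. Every comparison with the control rests on 1 array, and signal close to the filter limits SGO1 and INCENP.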
